A study of Mus musculus with 10 samples.

Results

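The chromatin around 8 genes of cardiac progenitor transcription factors was described: the GATA factors *Gata4*, *Gata5* and *Gata6*, the Hand factors *Hand1* and *Hand2*, and *Isl1*, *Nkx2-5* and *Mef2c*. These are 8 of 21827 protein-coding genes with a measured promoter. A summit, the position of highest signal in an ATAC-seq peak, was counted to a gene where it lay inside the gene or within 50 kb of it on mm10, and to its promoter where it lay within 1 kb of a start of a protein-coding transcript. Summits of the 9 libraries were joined into regions of 501 bp, of which 190 of 184764 lay at the 8 loci.

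ATAC-seq, which marks accessible DNA by cutting and tagging it with a transposase, had been performed on tdTomato+ cells sorted from pooled mouse hearts. The libraries comprise epicardium at E11.5 (3 libraries), epicardium at E17.5 (3 libraries) and epicardium-derived cells, called EPDCs (3 libraries). One EPDC library came from E12.5 hearts (sample 1) and the others from E13.5 hearts (samples 1 and 2), and the 2 technical replicates of the latter share 1 peak list. All embryos were Rosa26tdTomato;Wt1CreERT2/+ on C57BL/6J and received tamoxifen at E9.5, so cells that used the *Wt1* promoter at that time, and their descendants, carried the label. Epicardium was sorted as CD31-tdTomato+PDPN+ and EPDCs as CD31-tdTomato+PDPN-. Replicates are separate pools of littermate hearts, 6 per E11.5 sample, 4 per E17.5 sample and 4 to 13 per E13.5 sample. The range for E13.5 is that of the sample labels, and the paper's methods give a narrower one.

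These factors form the core of the cardiac progenitor programme. GATA factors are zinc finger proteins that bind GATA sequences, Hand factors are basic helix-loop-helix proteins that bind E-boxes, ISL1 is a LIM homeodomain protein of the second heart field, NKX2-5 is the homeodomain protein of the early cardiac lineage, and MEF2C is a MADS-box protein. They act together on cardiac muscle genes and regulate each other through enhancers that can lie far from the start sites. In the epicardium GATA4 and GATA6 are known for a role in its formation, and Hand2 for a role in its precursors, whereas ISL1 and NKX2-5 are best known from the myocardial lineage.

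The lists held 119386 to 142743 summits at E11.5, 94909 to 127933 at E17.5 and 102002 to 131830 in EPDCs, and the genome background behind them was 2.07 to 4.26 fragments per position in 8 libraries and 10.9 in E13.5 EPDC sample 2. The EPDC lists alone kept peaks outside the assembled chromosomes (61 to 87 intervals), so cell population, stage and list processing cannot be told apart in that comparison. The median promoter of 9 epicardial marker genes, on the percentile scale explained next, was at 94.4 to 95.8 at E11.5, 89.7 to 92.2 at E17.5 and 86.1 to 87.3 in EPDCs, and 4 of the 9, *Upk3b* among them, were lower in EPDCs, against 7.01% of all promoters. No summit lay at the promoters of the endothelial genes *Pecam1*, *Cdh5*, *Tie1* and *Emcn*, the blood genes *Ptprc*, *Gata1* and *Spi1* or the cardiomyocyte genes *Myh6* and *Myl2* in any library. Of 10 cardiomyocyte promoters, 7 had no summit in any EPDC library, and *Tnnt2*, *Actn2* and *Ryr2* stood at 77.7 to 91.1 in EPDCs and overlapped with epicardium. Between stages 2 of these 10 were higher and 3 lower at E17.5, such as *Myl7* (mean 34.9 to 68.1) and *Tnnt2* (87.7 to 62.9). Of 8 fibroblast and mural promoters 3 were higher and 2 lower at E17.5, against 7.94% and 18.3% of all promoters. The part of other cell types in the stage differences was not tested.

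Accessibility is given as a percentile, the rank of a summit's −log10 p among all summits of its own library, with 0 where no summit was called. A value of 0 means below the threshold of the peak caller, not closed. Groups were said to differ where their libraries did not overlap, and values are listed in the order of replicates 1 to 3 for epicardium and with the E12.5 library before samples 1 and 2 of E13.5 for EPDCs. At each gene the strongest promoter region, the strongest distal region and the largest difference in each direction were named by rule. Every other region named below was chosen after its values were seen, and all named regions are a description. In these bulk samples, fewer cells with an open element and less opening per cell cannot be told apart.

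The *Gata5* promoter held neighbouring elements with stage differences of opposite sign. GATA5 is the GATA factor best known from endocardium and epicardium. The gene lies on chr2:180325133-180334699, on the minus strand. The region at its start (chr2:180334508-180335008) stood at 91.3, 94.7 and 93.2 at E11.5, at 84.8, 86.8 and 85.9 at E17.5 and at 93.4, 95.8 and 95.3 in EPDCs, and the E17.5 libraries were all below the E11.5 libraries. This difference of -7.23 points was lost as a call with interval overlap (-3.94) and was -18.1 with ranking by fold enrichment. The region 0.999 kb upstream (chr2:180335448-180335948), in an intron of the antisense transcript *Gata5os*, stood at 69.9, 74.7 and 76.4 at E11.5, at 93.2, 96.7 and 95.6 at E17.5 and at 25, 0 and 12.3 in EPDCs. It was thus higher in every E17.5 than E11.5 library and lower in every EPDC library than in any epicardial one, whereas the start itself was at 84.8 or above in every library. The stage rise of the upstream region was 21.5 points, and 42.9 with ranking by fold enrichment. The promoter value, the strongest summit within 1 kb of the start, overlapped between groups (exact permutation p = 1 for stage and 0.524 for EPDCs). The centre of the upstream region lies close to that limit. In the first E17.5 replicate the promoter value was 84.8, that of the start, although the upstream region stood at 93.2. Without this library the stage difference of the promoter went from -0.70 to 3.09 points, and the groups no longer overlapped. The fragments at this upstream summit numbered 136, 157 and 143 at E11.5, 224, 463 and 396 at E17.5, and 60 and 166 in the E12.5 and the second E13.5 EPDC library, the last on a background of 10.9.

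A further upstream element of *Gata5* followed the same pattern, and another went the other way. The region 8.8 kb upstream (chr2:180343249-180343749, intergenic) had percentiles of 81, 79.1 and 82.4 at E11.5, 85.1, 91.1 and 86.8 at E17.5 and 34.7, 2.01 and 11 in EPDCs. The region 5.31 kb upstream (chr2:180339757-180340257), in an exon of *Gata5os* and between the previous elements, had 21, 1.78 and 0 at E11.5, 0 in all E17.5 libraries and 64.5, 80.6 and 77.1 in EPDCs. Its EPDC libraries were all above its epicardial ones, by 70.3 points and by 41.1 with ranking by fold enrichment. Both the 0.999 kb and the 5.31 kb element are shown because they carry the largest *Gata5* differences between EPDCs and epicardium, in opposite directions. Each is printed as 299 bases around its summit on the strand of the gene (chr2:180335549-180335847 and chr2:180339858-180340156, mm10), with a GATA motif (AGATAA or AGATAG or TGATAA or TGATAG, on either strand) in capitals. The window of the EPDC-high element holds none of the motifs searched. Its full region of 501 bp, however, holds 1 GATA motif and 2 Hand E-boxes (CATCTG). The full region of the EPDC-low element holds 1 GATA motif and 1 Hand E-box.
Gata5 EPDC-low element: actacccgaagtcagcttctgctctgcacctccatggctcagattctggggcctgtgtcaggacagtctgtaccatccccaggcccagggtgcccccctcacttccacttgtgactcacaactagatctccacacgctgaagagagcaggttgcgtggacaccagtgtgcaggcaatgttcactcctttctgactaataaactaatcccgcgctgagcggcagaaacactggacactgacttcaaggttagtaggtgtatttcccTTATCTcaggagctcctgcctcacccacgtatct
Gata5 EPDC-high element: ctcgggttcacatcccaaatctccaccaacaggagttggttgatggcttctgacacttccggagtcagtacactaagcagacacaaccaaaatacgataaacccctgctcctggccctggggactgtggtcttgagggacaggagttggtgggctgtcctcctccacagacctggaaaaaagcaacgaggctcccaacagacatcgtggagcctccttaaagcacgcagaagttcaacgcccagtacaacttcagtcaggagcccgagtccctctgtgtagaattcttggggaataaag

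Downstream of *Gata5* the clearest contrasts were between stages. The region 28 kb downstream (chr2:180306443-180306943) was at 5.84, 0 and 0 at E11.5, at 53.5, 59.3 and 53.7 at E17.5 and at 0 in every EPDC library, while the region 23.4 kb downstream (chr2:180311092-180311592) was at 57, 62.8 and 55.4 at E11.5, at 0, 19.1 and 22.6 at E17.5 and again at 0 in EPDCs. The elements are neighbours, lie nearer to *Rbbp8nl* than to *Gata5*, and moved in opposite directions between stages. The strongest distal region (chr2:180275815-180276315, 58.6 kb away) ranged from 71.5 to 91 over the 9 libraries and lay nearer to *Cables2*. Across the locus 20 regions were found, of which 7 were called in all libraries.

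*Gata4*, the GATA factor of early heart formation, had the most regions, 50, with 35.0 summits per library on average. This came to 20.3 per 100 kb, above 97.4% of protein-coding genes, whose median was 7.01. The gene lies on chr14:63198922-63271692, on the minus strand. Its strongest coding promoter region (chr14:63245114-63245614) was at 80.7, 86.5 and 79.8 at E11.5, at 81.4, 85 and 84.1 at E17.5 and at 79.8, 76.4 and 80.2 in EPDCs. The groups overlapped in both comparisons, with an exact permutation p of 0.0476 for EPDCs against epicardium and a difference of -4.13 percentile points. At the outermost start of the gene record, 26.4 kb upstream of the coding start, the region chr14:63271393-63271893 was at 93.1, 92.8 and 93.3, at 92.6, 91.3 and 90.5 and at 80.1, 84.7 and 87, so that EPDCs were below all epicardial libraries there.

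Beyond that start, adjacent intergenic elements of *Gata4* exchanged places. The region chr14:63306738-63307238, 35.3 kb outside the gene, was called in no epicardial library and stood at 61.8, 80.1 and 84.7 in EPDCs. The region chr14:63308890-63309390, 37.4 kb outside the gene, stood at 77.7, 85.1 and 74.5 at E11.5, at 81.8, 88.3 and 87.5 at E17.5 and at 36.2, 0 and 31 in EPDCs. Their difference between EPDCs and epicardium was the largest at the locus in each direction, 75.5 and -60.1 points. The fragments at the EPDC-specific summit were 49, 120 and 320. Nearby, the strong region chr14:63297136-63297636 stood at 94 to 99.3 over the 9 libraries, and its E17.5 libraries (96.1, 95.9 and 94.6) were below those of E11.5 (98.1, 97.8 and 99.3).

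More *Gata4* regions were lower than higher in EPDCs. Of its 50 regions 10 were lower and 3 higher in EPDCs, against 8.09% lower and 9.36% higher among all regions. The intronic region chr14:63222113-63222613 was at 72.5, 81.1 and 79.2 at E11.5, 79.8, 87.7 and 83.6 at E17.5 and 46.6, 56.7 and 62.8 in EPDCs, and chr14:63264307-63264807 fell from 60.4, 70.0 and 51.1 at E11.5 to 23.9, 36.2 and 30.8 at E17.5 and was lower still in EPDCs, at 23, 0 and 0. By contrast chr14:63247602-63248102, 2.58 kb upstream of the coding start, was at 24.3, 24.5 and 41.4 at E11.5, 44.8, 58.9 and 52.2 at E17.5 and 72.2, 78.1 and 84.9 in EPDCs, higher at E17.5 than at E11.5 and highest in EPDCs. Between stages the largest differences without overlap were 25.5 points at chr14:63232737-63233237 (46.5 with equal numbers of top summits) and -55.3 points at chr14:63195807-63196307 (-22.9 with ranking by fold enrichment). The latter, nearer to *Neil2*, was at 0, 16.6 and 0 at E17.5 but at 62.9, 54.2 and 62.7 in EPDCs. The strongest region at the locus (chr14:63177790-63178290, 99.1 to 99.8) is the promoter of the neighbouring gene *Fdft1*.

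*Gata6*, which acts with *Gata4* in heart and endoderm, lies on chr18:11052064-11085635. Its promoter was the only one of the 8 that differed between stages, at 95.6, 93.1 and 95.4 at E11.5 against 86.3, 90.5 and 87.6 at E17.5, with 91.4, 90.2 and 88.7 in EPDCs. The groups did not overlap (difference -6.56 points, exact permutation p = 0.10, the smallest that 20 assignments allow), against 18.3% of all promoters lower at E17.5 and 7.94% higher. Within the same promoter the region at the start (chr18:11052302-11052802) fell from 95.6, 93.1 and 95.4 to 86.3, 87.2 and 85.4, a difference of -8.37 points, and of -23.1 with ranking by fold enrichment. The adjacent region in the gene (chr18:11052977-11053477) rose from 76.6, 79.1 and 81.8 to 85.3, 90.5 and 87.6. Upstream of the start, chr18:11051523-11052023 was higher in EPDCs, at 51.9, 65.7 and 69.5, than in epicardium (0 to 35.1).

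Downstream of *Gata6* a group of intergenic elements was low in EPDCs. The region chr18:11100769-11101269, 48.5 kb from the start, was at 92.8, 92.9 and 91.5 at E11.5, 80.4, 88 and 85.6 at E17.5 and 62.6, 15.2 and 18.6 in EPDCs. The region chr18:11118994-11119494 was at 68.7, 65.2 and 64.5 at E11.5, at 25.8, 35.5 and 11.2 at E17.5 and uncalled in EPDCs, and chr18:11128870-11129370 was at 68.6, 58.6 and 64, at 45.7, 55.9 and 44.1 and at 4.89, 0 and 0. These 3 regions also fell between E11.5 and E17.5, so that each was highest at E11.5 and lowest in EPDCs. The stage difference of the first was -7.72 points, and -14.2 with ranking by fold enrichment. In the same stretch lay the EPDC-high region chr18:11097131-11097631, at 27.3, 48.8 and 56.1 in EPDCs and uncalled in the 6 epicardial libraries. Upstream, chr18:11035274-11035774 repeated the EPDC-low pattern, at 79.3 to 91 in epicardium and 60.7, 16.5 and 44 in EPDCs. In the introns, chr18:11082010-11082510 was called only at E17.5, at 45.2, 52.8 and 58.1, and chr18:11077961-11078461 dropped at E17.5 from 84.9, 85.8 and 89.4 to 41.4, 53.5 and 32.5 but stood at 87.4, 80.1 and 82.5 in EPDCs. A fall of like size was at chr18:11069324-11069824, from 49.3, 65.8 and 68.3 to 8.28, 18.5 and 20.6, with 30.0, 26.4 and 35.4 in EPDCs. Its difference of -45.4 points was next to -44.3 at the former, and their order turned by fold enrichment (-35 and -46.7), with log2 scores, with the stricter q threshold and with equal numbers of top summits.

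**Figure D1:**
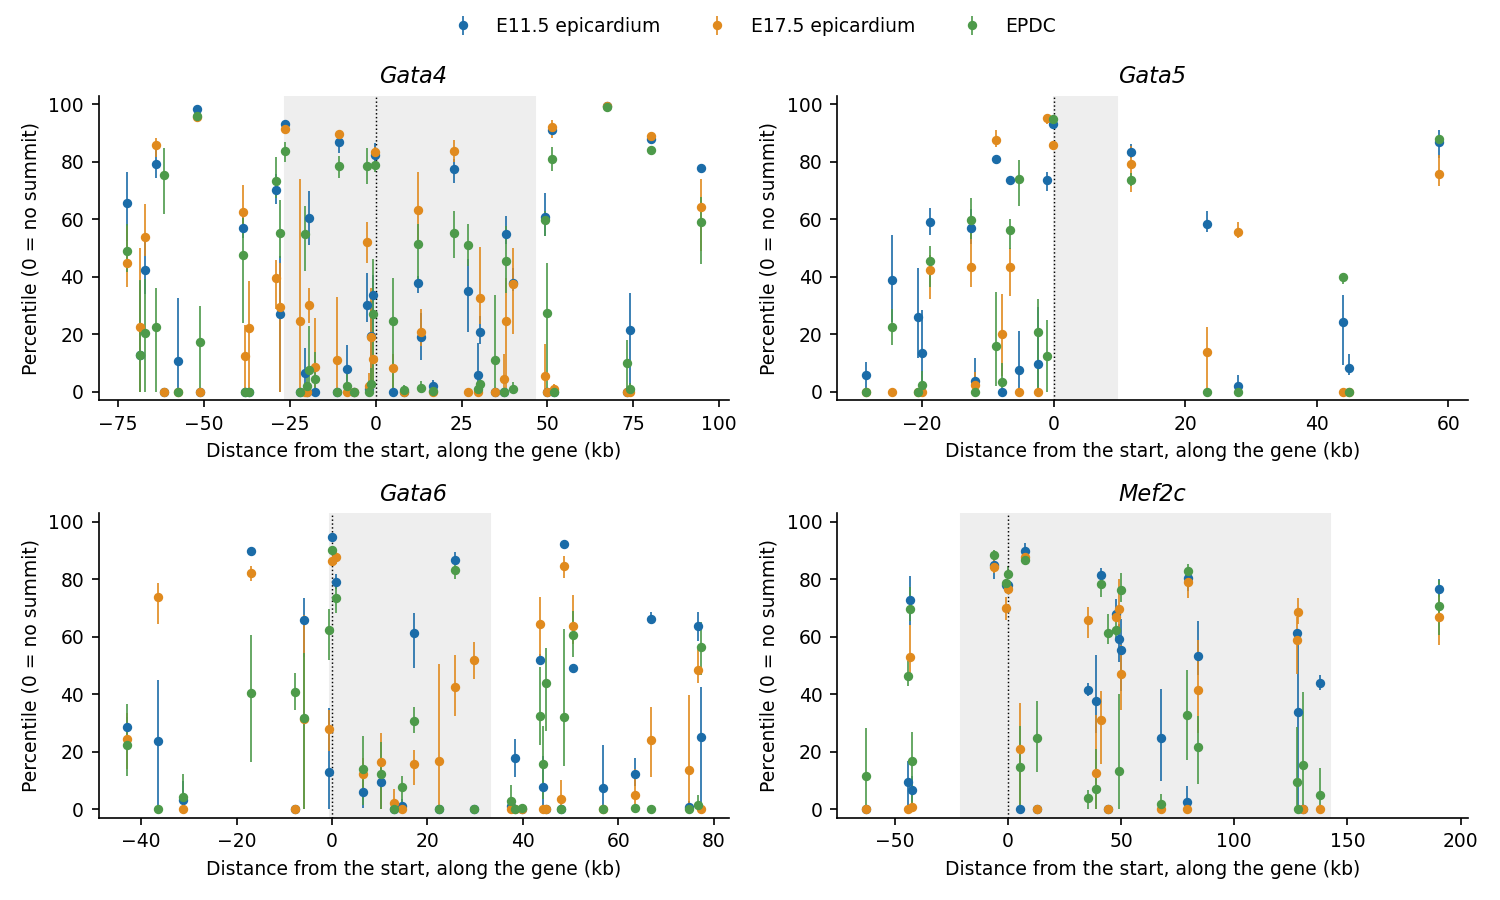
Percentile (0 to 100, 0 where no summit was called) of each region at *Gata4*, *Gata5*, *Gata6* and *Mef2c* against its distance in kb from the start whose promoter was strongest, along the direction of transcription. Points are means and bars the range over the 3 libraries of E11.5 epicardium (blue), E17.5 epicardium (orange) and EPDCs (green), and grey marks the gene record. The *Gata5* start stays above 84 in every group while the region 0.999 kb upstream is low in EPDCs only, and the *Gata4* panel shows the adjacent EPDC-high and EPDC-low elements at its far left.

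*Hand1*, a Hand factor of the left ventricle and extraembryonic tissues, had the lowest promoter mean of the 8 when summits within 1 kb of a start were counted. It lies on chr11:57828705-57832818, on the minus strand. Its promoter was at 23.7, 16.5 and 17.1 at E11.5, at 17.2, 34.9 and 0 at E17.5 and at 30.2, 30.6 and 0 in EPDCs, and the groups overlapped (exact permutation p = 1 and 0.893). The region inside the gene near its start (chr11:57831482-57831982) was called in every E11.5 library, at 23.7, 16.5 and 17.1, and in no E17.5 library. This difference, -19.1 points, was lost as a call with equal numbers of top summits (-1.33) and was -4.82 with ranking by fold enrichment and -5.68 with the stricter q threshold. Just beyond the 1 kb limit, chr11:57833636-57834136 was called in every library and fell from 40.9, 42.7 and 64.4 at E11.5 to 17.2, 34.9 and 29.9 at E17.5, with 30.2, 30.6 and 37.9 in EPDCs, and its summits were counted to the promoter where they fell inside that limit. The distal region chr11:57866468-57866968, 33.9 kb upstream, stood at 54, 60.1 and 67 at E11.5, fell to 7.04, 4.87 and 0 at E17.5 and stood at 72.9, 64.8 and 72.3 in EPDCs. In EPDCs this region was higher than all epicardial libraries by fold enrichment (38.8 points), with log2 scores (1.43) and with equal numbers of top summits (40.6), but not by −log10 p (37.8). By −log10 p none of 16 regions differed between EPDCs and all epicardial libraries, 3 were higher and 3 lower at E17.5, against 9.36% higher and 8.09% lower in EPDCs and 11.0% higher and 27.4% lower at E17.5 among all regions. The largest rise was at chr11:57809360-57809860, in an intron of *Sap30l*, from 0 to 29.2, 61.3 and 44.6, with 0 in EPDCs. The strongest region (chr11:57801300-57801800, 96.6 to 98.2) lies at the promoter of *Sap30l*.

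*Hand2*, the Hand factor of the right ventricle, second heart field and epicardial precursors, had a dense locus, with 20.4 summits per 100 kb, above 97.5% of genes. It lies on chr8:57320983-57324633. Its promoter was of middle height, and its groups overlapped, at 67.4, 78.7 and 61.9 at E11.5, 58.9, 78.6 and 80.3 at E17.5 and 70.0, 71.3 and 79 in EPDCs (exact permutation p = 0.90 and 0.667). The highest values lay downstream, where chr8:57353547-57354047, 32.8 kb from the start, stood at 93.8, 92.7 and 95.8 at E11.5, at 83.9, 87.9 and 88.6 at E17.5, below all of E11.5, and at 95.2, 95.9 and 94 in EPDCs. Its stage difference of -7.32 points turned with ranking by fold enrichment (3.55), where the groups overlapped, and they also overlapped with log2 scores (-0.48). Of 21 *Hand2* regions 2 were higher and none lower in EPDCs, against 9.36% and 8.09% of all regions. The region chr8:57361053-57361553, 40.3 kb downstream, was at 69.1, 60.2 and 71.5 at E11.5, at 63.2, 63.3 and 71.8 at E17.5 and at 87.1, 86.9 and 89.5 in EPDCs, so every EPDC library exceeded every epicardial one. The sequence of its summit is shown because it is the most EPDC-high element of the locus (chr8:57361154-57361452, mm10, plus strand), with the TEAD motif (GGAATG on either strand) in capitals. It holds none of the other motifs searched.
Hand2 EPDC-high element: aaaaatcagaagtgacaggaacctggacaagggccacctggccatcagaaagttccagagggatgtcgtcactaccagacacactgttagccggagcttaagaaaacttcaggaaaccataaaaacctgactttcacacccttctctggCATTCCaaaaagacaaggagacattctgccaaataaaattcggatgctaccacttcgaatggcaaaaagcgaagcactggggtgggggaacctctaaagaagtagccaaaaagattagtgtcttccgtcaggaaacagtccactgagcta

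Between stages *Hand2* regions moved both ways, 4 up and 8 down of 21, against 11.0% and 27.4% of all regions. The largest drop was at chr8:57362865-57363365, from 64.2, 69.1 and 60.5 at E11.5 to 16.4, 18.9 and 32 at E17.5, with 11.52, 17.3 and 37.2 in EPDCs, and this region is the next one downstream of the EPDC-high element. The region chr8:57331700-57332200, 11 kb downstream, fell from 90.7, 87.4 and 86.1 to 50.3, 60.9 and 60.6 and stood at 79.7, 77.9 and 77.8 in EPDCs. The region chr8:57328738-57329238 rose from 78.1, 79.8 and 77.9 to 85.7, 84.6 and 84.5 and stood at 87.1, 89.1 and 90.0 in EPDCs, above all epicardial libraries. In an exon of the gene chr8:57321863-57322363 rose from 33.6, 30.1 and 24.4 to 42.9, 51.3 and 57.3, by 21.1 points, and by 9.24 with ranking by fold enrichment, 37.4 with equal numbers of top summits and 37.9 with interval overlap.

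*Isl1* had the fewest regions and the most accessible promoter. It lies on chr13:116298281-116309689, on the minus strand. Its promoter stood at 95.2, 95.6 and 96 at E11.5, 93.4, 97 and 94.1 at E17.5 and 96.1, 95.6 and 96.9 in EPDCs, the highest mean of the 8, and the groups overlapped (exact permutation p = 0.50 and 0.250). The stage difference of -0.757 points turned with ranking by fold enrichment (5.68) and with log2 scores (0.24), and in both all E17.5 libraries were above those of E11.5. Without the second E17.5 replicate it was -1.84, and the E17.5 libraries left were below those of E11.5. Only 4 further regions were found. With the promoter included the locus had 2.69 summits per 100 kb, above 23.0% of genes. The strongest of the 4 (chr13:116297347-116297847, 11.8 kb from the start, beyond the gene's end) was at 50.1, 32.6 and 42.7 at E11.5, 0, 0 and 26.8 at E17.5 and 4.89, 35 and 40.6 in EPDCs. A further region beyond the 3' end (chr13:116293638-116294138) was at 20.9, 23.6 and 22.3 at E11.5, uncalled at E17.5 and at 0, 0 and 1.92 in EPDCs. The fall of the former at E17.5 was lost with log2 scores and with equal numbers of top summits.

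*Nkx2-5* had the opposite arrangement, a weak promoter in a well-occupied locus. It lies on chr17:26838664-26845009, on the minus strand. Its promoter was at 0, 34.1 and 13.7 at E11.5, uncalled in every E17.5 library, and at 34.7, 55.1 and 57.9 in EPDCs. All EPDC libraries were above the epicardial ones by 41.3 points on average (exact permutation p = 0.0119, the smallest that 84 assignments allow), though the lowest EPDC and highest epicardial library lay within 1 point of each other. Higher values in EPDCs were found at 4.84% of all promoters and lower ones at 7.01%. The difference was found at the coding start, and at the outermost start of the gene record it was -4.19 points. None of the 10 cardiomyocyte promoters was higher in EPDCs, and *Myh7* and *Myl7* were lower, uncalled there and called in all epicardial libraries. Of 6 blood promoters *Lyz2* was higher in EPDCs, at 31.1, 53.5 and 64.9 against 0 to 19.2, and of 6 endothelial promoters *Kdr* was. Of 8 fibroblast and mural promoters *Postn* was higher and *Dcn* lower. The part of these cell types in the *Nkx2-5* value was not tested.

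Further out, *Nkx2-5* had its strongest regions upstream, inside the transcripts *Gm17382* and *Gm20468*, and the farthest of them lay nearer to *Kifc5b*. There chr17:26887844-26888344 was at 15, 42.8 and 42.1 at E11.5, 27.6, 38.2 and 30.5 at E17.5 and 73.9, 75.1 and 77.3 in EPDCs, higher in all EPDC libraries. The region chr17:26884853-26885353 was high in every library (81.5 to 92), and chr17:26861369-26861869, 20.1 kb upstream, fell from 88.6, 90.3 and 88.1 at E11.5 to 76.5, 80.1 and 81.7 at E17.5. Close by, chr17:26886007-26886507 was lower in EPDCs, at 76.6, 81.3 and 82.4 against 83.7 to 87.9 in epicardium, a call lost with log2 scores and with equal numbers of top summits. The region chr17:26894278-26894778 was uncalled at E11.5 and stood at 48.7, 51.9 and 30.7 at E17.5. On the other side of the gene chr17:26825667-26826167, 15.6 kb downstream, fell from 68.5, 61.5 and 53.3 at E11.5 to 0, 7.28 and 0 at E17.5 and stood at 18.6, 27.6 and 36.7 in EPDCs.

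The bases before the starts of *Isl1* and *Nkx2-5* are shown beside each other because these promoters are the strongest and one of the weakest of the group. They were taken from RefSeq promoters (GRCm38.p6, the assembly of mm10), 5′ to 3′ on the minus strand, without the bases that lie in an annotated exon (chr13:116309690-116309938 and chr17:26841609-26841815), and CpG dinucleotides are in capitals. In the 250 bases before the start *Isl1* has 33 CpG, more than 96.0% of 32851 RefSeq promoters, and *Nkx2-5* has 8, more than 57.0%, where the median promoter has 6. The RefSeq promoters of *Gata5* and *Hand2* have 22 and 15, and the 3 of *Mef2c* have 1, 6 and 4.
Isl1 promoter: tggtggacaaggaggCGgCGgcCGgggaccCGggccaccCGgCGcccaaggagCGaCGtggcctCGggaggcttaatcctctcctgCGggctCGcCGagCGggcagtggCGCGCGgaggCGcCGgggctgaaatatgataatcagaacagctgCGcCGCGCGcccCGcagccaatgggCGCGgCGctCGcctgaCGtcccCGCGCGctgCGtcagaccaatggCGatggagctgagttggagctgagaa
Nkx2-5 promoter: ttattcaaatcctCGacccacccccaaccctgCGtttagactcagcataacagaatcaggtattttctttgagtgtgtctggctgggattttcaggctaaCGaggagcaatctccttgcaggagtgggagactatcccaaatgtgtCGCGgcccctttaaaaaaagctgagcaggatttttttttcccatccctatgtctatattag

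**Figure D2:**
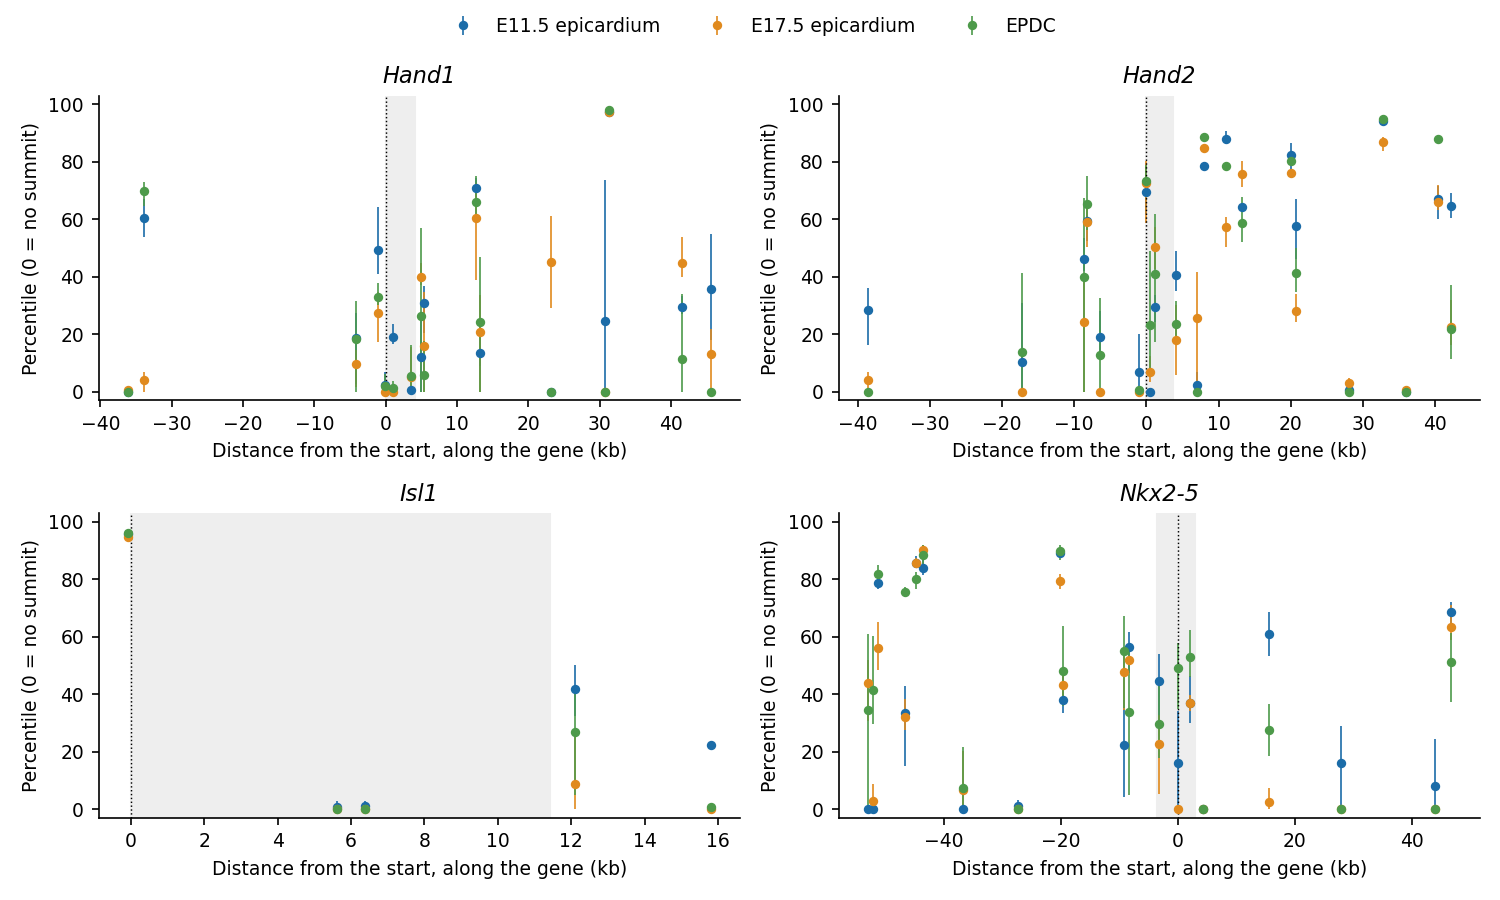
Percentile (0 to 100, 0 where no summit was called) of each region at *Hand1*, *Hand2*, *Isl1* and *Nkx2-5* against distance in kb from the start of the strongest promoter, along the direction of transcription, with means (points) and ranges (bars) over 3 libraries per group and the gene record in grey. *Isl1* has a single strong region, at its start, whereas the strongest *Nkx2-5* regions lie more than 20 kb upstream and its start is highest in EPDCs.

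*Mef2c*, whose product is a partner of the GATA and Hand proteins and which is transcribed from several starts, lies on chr13:83504034-83667080. Its starts fall into 4 clusters, of which the first and the last had no summit in any library. The cluster at 83524535 stood at 77.7, 80.0 and 78.5 at E11.5, 76.1, 79.1 and 74.9 at E17.5 and 80.3, 81.1 and 84.6 in EPDCs, and the cluster at 83573607 at 62.1, 64.3 and 66, 65.3, 80.2 and 63.4 and 72, 82.2 and 75. The promoter value, the higher of the clusters, was above epicardium in all EPDC libraries by 4.47 points (exact permutation p = 0.0238). With ranking by fold enrichment (9.22 points) and with the stricter q threshold (5.60) the difference was larger but the groups overlapped, and the outermost start had no summit. At the later cluster the region over the start (chr13:83573297-83573797) was lower in EPDCs, at 40.1, 0 and 0 against 51.2 to 80.2 in epicardium. The region just inside the transcript (chr13:83574120-83574620) was higher, at 72, 82.2 and 75 against 34.4 to 66. The difference of the first, -51 points, was -42.3 with equal numbers of top summits and -28.5 with interval overlap, where the groups overlapped.

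In the introns of *Mef2c* several elements differed between groups. The region chr13:83568743-83569243, 4.61 kb before the later start cluster, was uncalled in all 6 epicardial libraries and at 58.5, 57.5 and 67.9 in EPDCs, and chr13:83537054-83537554 shared this pattern, at 13.1, 23.4 and 37.5. The opposite was seen at chr13:83559897-83560397, with 43.9, 41 and 39.3 at E11.5, 59.4, 67.8 and 70.2 at E17.5 and 0, 4.52 and 6.69 in EPDCs. Between stages chr13:83565643-83566143 fell most, from 84, 81.4 and 79.2 to 15.7, 41.2 and 36.1, while EPDCs stood at 82.7, 73.8 and 78.1, and chr13:83652521-83653021 rose most, from 62.3, 0 and 39.6 to 64.3, 73.5 and 68.3, with no summit in EPDCs. With interval overlap this rise went from 34.7 to 7.13 points and its difference between EPDCs and epicardium from -51.3 to -14.1. The size of the rise, and its rank as the largest, depend on the second E11.5 library, where no summit was called. The strongest distal region (chr13:83531923-83532423) was at 84.9 to 92.8 in all libraries. In all, 6 of its 26 regions were higher and 3 lower in EPDCs, against 9.36% and 8.09% of all regions.

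The sequences of *Mef2c* elements are shown for the region called in EPDCs only and for the region that fell most at E17.5 but not in EPDCs (chr13:83568844-83569142 and chr13:83565744-83566042, mm10, plus strand). Capitals mark GATA motifs (AGATAA or AGATAG or TGATAA or TGATAG), the TEAD motif (GGAATG), each on either strand, and a match to the MEF2 consensus. The EPDC element holds 2 GATA motifs in this window, and the stage element 1 GATA, 1 TEAD and 1 MEF2 match. The full region of 501 bp of the stage element holds 2 GATA motifs. The *Nkx2-5* element that fell most at E17.5 (chr17:26825768-26826066, minus strand) is printed below them and holds 2 GATA and 1 TEAD motif.
Mef2c EPDC element: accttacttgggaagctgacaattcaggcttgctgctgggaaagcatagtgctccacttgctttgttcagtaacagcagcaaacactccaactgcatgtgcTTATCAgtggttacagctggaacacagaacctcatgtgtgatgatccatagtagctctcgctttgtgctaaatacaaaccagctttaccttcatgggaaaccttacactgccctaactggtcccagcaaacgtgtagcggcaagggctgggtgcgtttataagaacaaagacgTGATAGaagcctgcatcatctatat
Mef2c stage element: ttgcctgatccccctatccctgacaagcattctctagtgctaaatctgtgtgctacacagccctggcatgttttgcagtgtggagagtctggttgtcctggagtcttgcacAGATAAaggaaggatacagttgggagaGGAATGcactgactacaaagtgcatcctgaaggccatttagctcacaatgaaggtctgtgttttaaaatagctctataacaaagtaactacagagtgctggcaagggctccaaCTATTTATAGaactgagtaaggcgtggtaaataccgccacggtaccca
Nkx2-5 stage element: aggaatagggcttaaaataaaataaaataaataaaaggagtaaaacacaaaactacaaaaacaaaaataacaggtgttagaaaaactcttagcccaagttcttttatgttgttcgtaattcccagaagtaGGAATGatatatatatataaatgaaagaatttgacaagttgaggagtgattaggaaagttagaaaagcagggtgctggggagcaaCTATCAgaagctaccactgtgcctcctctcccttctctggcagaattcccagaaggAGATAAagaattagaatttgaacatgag

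The 8 promoters covered a wide range of levels. In descending order of the mean over libraries stood *Isl1*, *Gata5*, *Gata6*, *Gata4*, *Mef2c*, *Hand2*, *Nkx2-5* and *Hand1*. Group means with SD (n = 3) were 82.3 ± 3.64, 83.5 ± 1.9 and 78.8 ± 2.11 for *Gata4* at E11.5, E17.5 and in EPDCs, 93.1 ± 1.73, 92.4 ± 6.58 and 94.8 ± 1.29 for *Gata5*, and 69.3 ± 8.57, 72.6 ± 11.9 and 73.4 ± 4.84 for *Hand2*. Within libraries *Gata6* stood above *Gata4*, and *Hand2* above *Nkx2-5*, in all 9. The other neighbours did not keep one order, as *Mef2c* was above *Hand2* in 8, *Isl1* above *Gata5* in 7, *Gata5* above *Gata6* and *Gata4* above *Mef2c* in 6, and *Nkx2-5* above *Hand1* in 4 of 9 libraries. Between stages 1 of 8 promoters was lower and none higher at E17.5, against 18.3% and 7.94% of all promoters. In EPDCs 2 of 8 were higher and none lower, against 4.84% and 7.01%.

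**Figure D3:**
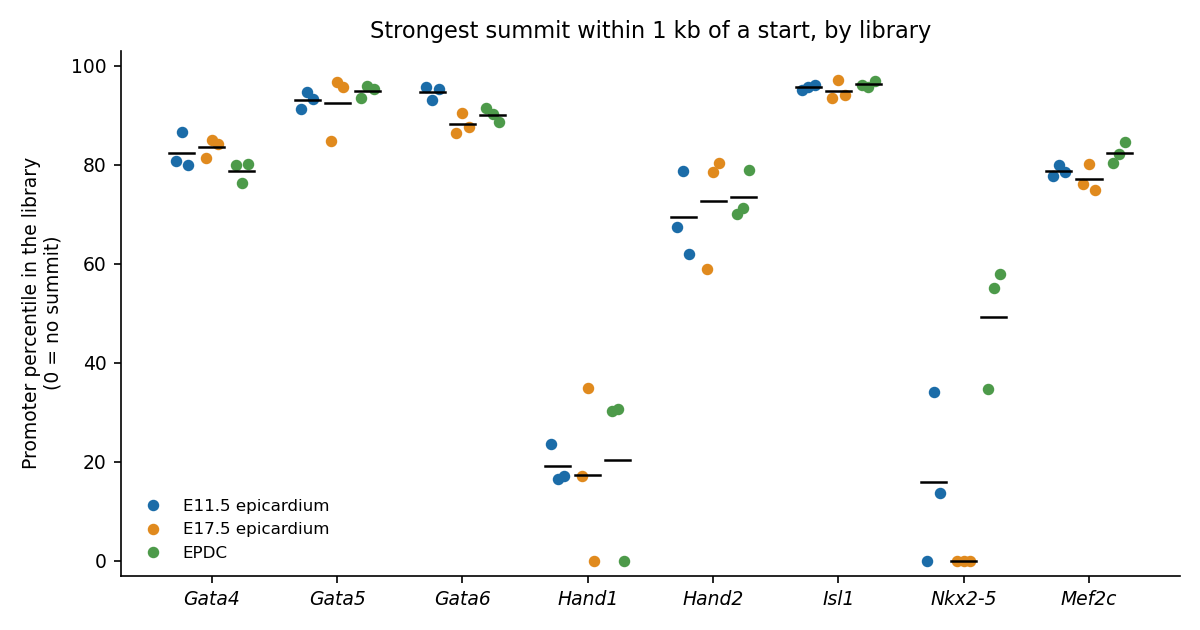
Promoter percentile of the 8 genes (0 to 100, 0 where no summit lay within 1 kb of a start). Each point is 1 library of E11.5 epicardium (blue), E17.5 epicardium (orange) or EPDCs (green), and bars are means over 3 libraries. Values of 6 promoters lie between 58.9 and 97.0 in every library, *Hand1* stays at or below 34.9, and *Nkx2-5* is uncalled at E17.5 and at 34.7 to 57.9 in EPDCs.

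Over all regions of the 8 loci, the shares that differed were near those of the genome. Of the 190 regions 45 (23.7%) were lower and 22 (11.6%) higher at E17.5, against 27.4% and 11.0% of all 184764 regions. In EPDCs 21 (11.1%) were lower and 20 (10.5%) higher than in all epicardial libraries, against 8.09% and 9.36% of all regions. The split between higher and lower calls moved with the scale: between stages 32.8% of calls were higher with ranks by −log10 p, 45.8% with ranks by fold enrichment, 48.1% with log2 scores and 54.1% with equal numbers of top summits, and in EPDCs the share went from 48.8% to 70.5% with equal numbers. Over regions called in every library the median changed by -3.53 percentile points between stages and by -0.741 in EPDCs. Set against each stage alone, EPDCs had 22 regions (11.6%) higher and 49 (25.8%) lower than E11.5 epicardium, against 10.8% and 24.6% of all regions. They had 45 (23.7%) higher and 32 (16.8%) lower than E17.5 epicardium, against 19.3% and 15.96%. Without the first E17.5 replicate, which had the fewest summits, 38 regions (20%, against 16.7% of all) were higher at E17.5, and without the E12.5 sample 32 (16.8%, against 16.9%) were higher in EPDCs.

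**Figure D4:**
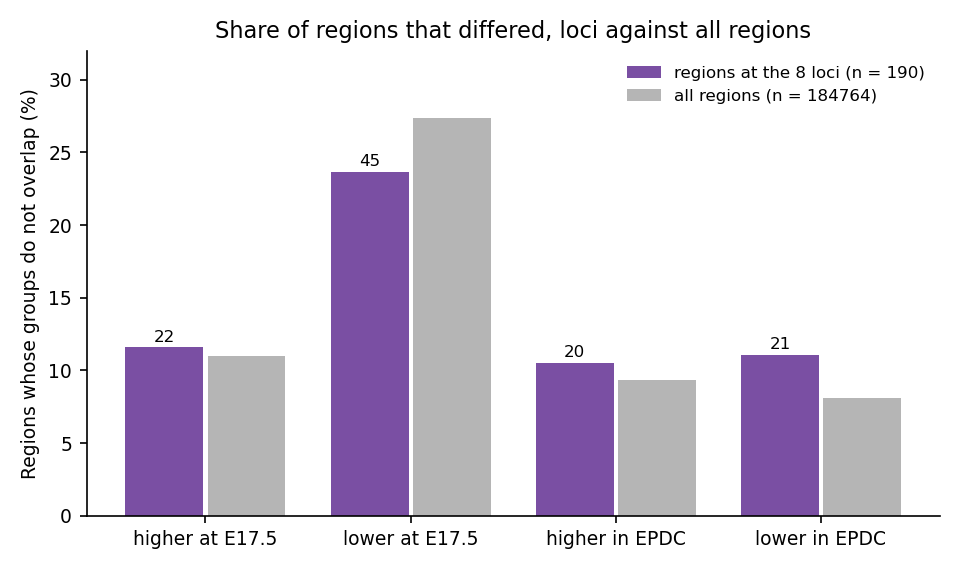
Share (%) of regions whose groups did not overlap, in each direction, for the 190 regions at the 8 loci (purple, number of regions above each bar) and for all 184764 regions (grey). The purple bars are at 11.6, 23.7, 10.5 and 11.1%, beside grey bars at 11.0, 27.4, 9.36 and 8.09%.

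Many regions at these loci were shared between libraries. Of the 190, 69 (36.3%) were called in all 9 libraries, against 24.7% of all regions, and 20 (10.5%) in a single library, against 16.6%. No EPDC library called 37 of them (19.5%, against 31.4% of all regions), and no epicardial library called 15 (7.89%, against 13.2%), of which 8 were at *Gata4*, 4 at *Mef2c* and 3 at *Gata6*. By annotation 85 regions were intronic, 78 intergenic and 27 exonic, and 17 lay within 1 kb of a start of their own gene. A further 7 lay at the start of another protein-coding gene, such as *Fdft1* or *Sap30l*.

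**Figure D5:**
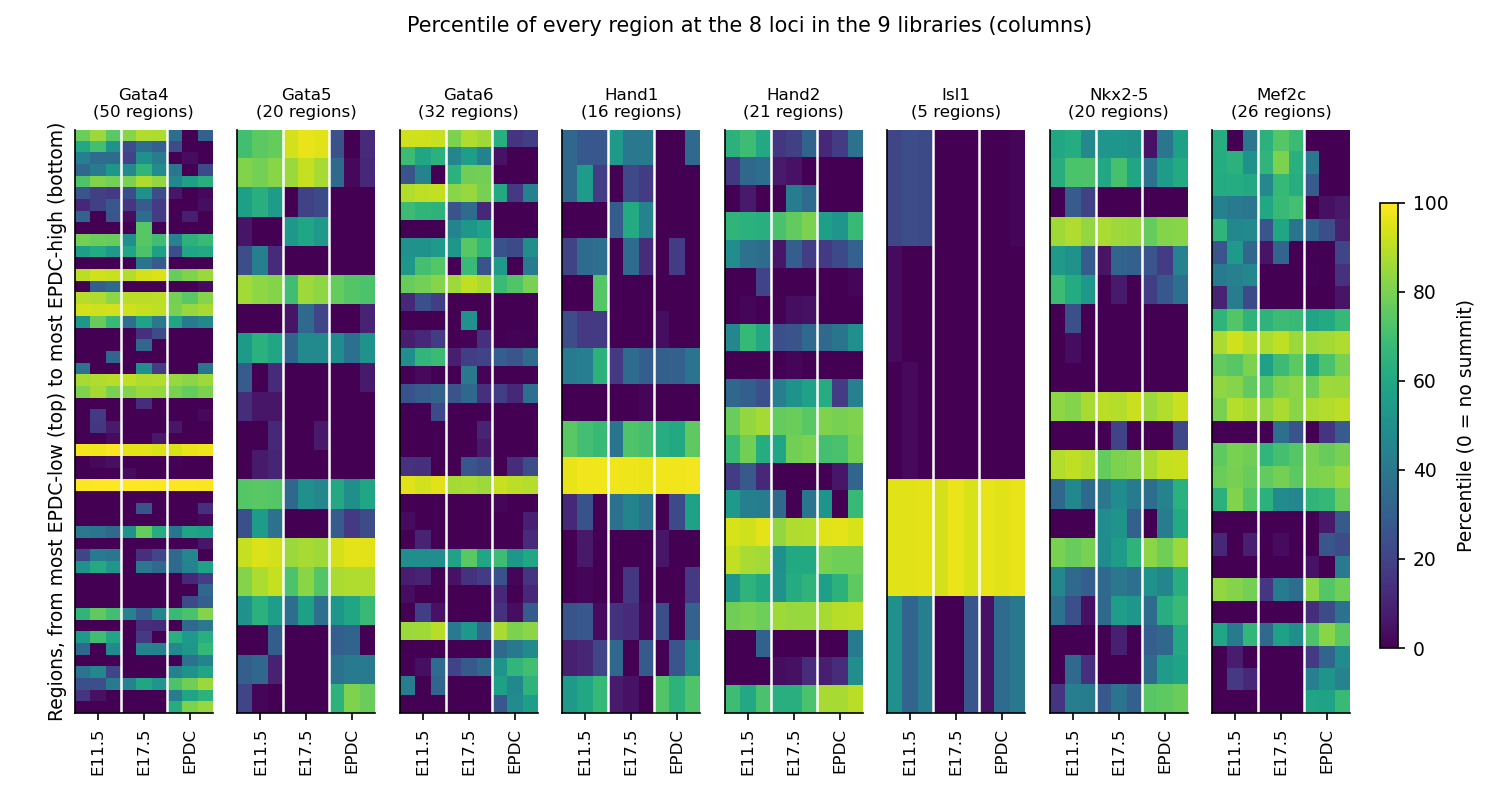
Percentile (colour, 0 to 100) of each of the 190 regions (rows) in the 9 libraries (columns, 3 each of E11.5 epicardium, E17.5 epicardium and EPDCs, divided by white lines). Rows of each gene are sorted from the most EPDC-low at the top to the most EPDC-high at the bottom. Rows lower in EPDCs than in every epicardial library are found for *Gata4*, *Gata5*, *Gata6*, *Mef2c* and *Nkx2-5*. Rows uncalled in every EPDC library are found for all the genes, and *Isl1* has 1 bright row of 5.

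The number of summits per locus differed between stages at *Gata5* and *Isl1*. *Gata5* had 16, 16 and 18 summits at E11.5 against 12, 14 and 13 at E17.5, *Isl1* had 5, 5 and 4 against 1, 2 and 3, and both fell without overlap (exact permutation p = 0.10, the smallest possible). Lower numbers at E17.5 were found for 18.1% of genes and higher ones for 4.53%. A count per 100000 summits of the library was added after seeing the data, and on that scale 28.2% of genes were higher and 13.8% lower at E17.5. Per 100000 summits of the library, *Gata5* no longer differed (13.4, 11.2 and 13.1 against 12.6, 10.9 and 12.1), whereas *Isl1* did (4.19, 3.5 and 2.9 against 1.05, 1.56 and 2.79). On this scale *Gata4* was higher at E17.5, at 32.7, 32 and 32.6 against 26, 23.8 and 30.5, as was *Hand2*, at 21.1, 20.3 and 18.6 against 14.2, 18.2 and 18.1, and *Hand1* was lower, at 11.6, 11.7 and 12.1 against 12.6, 13.3 and 12.3. The 8 loci together were then also higher, at 129.6, 133 and 132 against 118, 117 and 128. As called, their summits overlapped between stages and were fewer on average at E17.5, at 123, 170 and 142 against 141, 167 and 176. In EPDCs the number of summits as called differed for no member, against 3.12% of genes higher and 7.81% lower, with exact permutation p between 0.0595 for *Hand1* (11, 12 and 9 summits in EPDCs) and 0.810 for *Gata6*. Per 100000 summits *Hand1* was lower in EPDCs, at 10.8, 11.2 and 6.83 (exact permutation p = 0.0119), against 8.38% of genes lower and 6.02% higher. The *Isl1* fall was lost with equal numbers of top summits, and that of *Gata5* also with the stricter q threshold and with 25 kb on each side.

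The shares of regions with a GATA, NKX2 or MEF2 motif were near those of all regions, whereas the T-box share was above and the TEAD and Hand E-box shares below theirs, which was not tested. GATA motifs (AGATAA or AGATAG or TGATAA or TGATAG) were in 112 of 190 regions (58.9%), against 60.7% of all, the NKX2 motif (TCAAGTG or TTAAGTG) in 21 of 190 and in 21286 of 184764, the Hand E-box (CATCTG) in 27.4% against 35.4%, the ISL1 motif (CTAATTG or CTAATGG) in 9.47% against 7.40%, the T-box motif (AGGTGTGA) in 4.21% against 1.97%, the TEAD motif (GGAATG) in 24.2% against 33.1% and the MEF2 consensus in 7.37% against 6.37%. Both strands were read, and overlapping matches of different motifs were each counted. Among members the GATA share went from 27 of 32 regions at *Gata6* to 6 of 16 at *Hand1*. In the 21 EPDC-low regions 14 held a GATA motif, and in the 20 EPDC-high regions 9 did. In these sets the Hand E-box was in 7 and 3, the TEAD motif in 7 and 8 and the MEF2 consensus in 0 and 3. The NKX2 motif was in 0 and 1, the ISL1 motif in 2 and 1 and the T-box motif in 1 and 0. None of these contrasts was tested. A match is a description of letters, not a bound site.

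Of 16 partner genes, promoters of 5 were lower and 3 higher at E17.5, and 3 were higher and none lower in EPDCs. Over all promoters 18.3% were lower and 7.94% higher at E17.5, and 4.84% higher and 7.01% lower in EPDCs. In the GATA family *Gata3* was at 52.5, 36.6 and 26.9 at E11.5, 53.2, 67.9 and 65.7 at E17.5 and 77.2, 84.2 and 81.7 in EPDCs, and its groups did not overlap in either comparison. *Gata2* stayed at 79.7 to 90.0, and *Gata1*, the erythroid factor, had no summit. Of the GATA cofactors *Zfpm1* was at 95.4 to 97.8 throughout, and *Zfpm2* fell at E17.5, from 88.4, 88.7 and 89.8 to 80.7, 84.9 and 71.7. The *Mef2c* paralogues were high in every library, *Mef2a* with a small rise (89.6, 91.9 and 86.5 to 92.2, 94.9 and 94.1), *Mef2d* with a small fall (91.7, 92.5 and 92.9 to 90.9, 88 and 88.8) and *Mef2b* at 97.8 to 99.7.

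Among genes that act with these factors, *Myocd*, a coactivator of SRF in muscle, was higher in EPDCs, at 84, 86.9 and 90.6 against 67.6 to 83 in epicardium. *Smarcd3*, a cardiac subunit of the BAF remodelling complex, was lower at E17.5 (73.6, 74.8 and 73.6) than at E11.5 (81.1, 83.2 and 80.1) and highest in EPDCs (86.4, 86.8 and 88.3). The second heart field ligand *Fgf10* fell from 68.8, 74 and 73.9 to 54.2, 43.1 and 60.3 at E17.5, while *Fgf8* rose from 55, 56.8 and 39.6 to 63.4, 66.9 and 64.2. *Irx4*, a ventricular factor, was low at E11.5 (11.7, 1.8 and 8.21) and uncalled at E17.5. *Tbx20* and *Srf* stayed at 94.8 to 98.9 and 97.4 to 98.8, and *Tbx5* overlapped between groups, at 59.2, 69.1 and 45.5, 19.5, 38.4 and 47 and 45, 37.5 and 53.4.

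Promoter profiles were set against those of all other protein-coding genes. By root mean square difference over the 9 libraries, *Gata4* was closest to *Pmvk* (1.42 points) and *Hadha* (1.59), *Gata5* to *Cep126* (2.01) and *Yjefn3* (2.01), *Gata6* to *Cyp1b1* (1.46) and *Kcnn3* (1.48), and *Mef2c* to *Clmp* (2.04) and *Rps6ka6* (2.10). *Hand2* was closest to *Mcf2* (3.88) and *4930404H24Rik* (4.08). The weak promoters were farther from any other gene, as *Nkx2-5* lay 5.58 points from *Myct1* and 6.28 from *Lyz2*, and *Hand1* 10.9 from *Gm12166* and 12.3 from *Trim10*. *Lyz2*, which marks myeloid cells, is the blood promoter named above. These distances compare library values only.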

How the data were processed

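Bulk ATAC-seq peak lists of 9 libraries from 10 samples were analysed. Per the methods, the authors ran the nf-core atacseq pipeline on mm10, dropped duplicate, multimapped, blacklisted and mitochondrial reads, and called peaks on fragment pairs (MACS2 2.2.9.1, q-value 0.01). The deposited lists give for each summit the fold enrichment, the −log10 p and the −log10 q, and its offset, and an interval can hold several summits. Reads were not used here, so depth is known only through these lists.

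From the files, summits on chromosomes 1 to 19, X and Y were ranked by −log10 p within each library, and the rank percentile was the measure. Non-overlapping regions of 501 bp were built around summits, strongest first. Genes, starts and promoter sequences came from the reference annotation of GRCm38.p6. Groups were compared by non-overlap of libraries and by two-sided exact permutation tests (20 assignments between stages, smallest p 0.10, and 84 for EPDCs against epicardium, smallest p 0.0119). No adjusted p is given. Fragments at a summit were solved from fold enrichment and p with a pseudocount of 1. Scripts used Python 3.11.15, numpy 2.4.6, pandas 2.3.3 and scipy 1.17.1. The non-overlap, permutation and fragment steps were tested on simulated data, and the building of regions was not.

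Alternatives were ranking by fold enrichment, log2 scores normalised to the library, a −log10 q of at least 5, the 94909 strongest summits of each library, interval overlap of 1 bp, 25 kb on each side, the start of the gene record, each library left out and a replicate block. Regions named by rule were the strongest promoter and distal region of each gene and the largest non-overlapping difference in each direction of each comparison. The members and lists were chosen with earlier results of these data known. The likeness result for *Isl1* is not reported here.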

Additional observations from a re-analysis of the deposited data

How the results depend on the processing

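Of 224 promoter differences and 192 summit number differences over all alternatives, 205 and 172 were unchanged as calls or as overlap, 15 and 15 became calls and 4 and 5 were lost. The sign was opposite in 29 and 19, of which 4 and 3 were calls. Promoters that became calls between stages were *Gata4* with log2 scores (0.34), equal numbers (5.71) and the start of the gene record (-1.56), *Isl1* by fold enrichment (5.68) and log2 scores (0.24) and *Hand1* with interval overlap (-22.0), and in EPDCs *Gata4* at the start of the gene record (-8.38) and *Gata5* by fold enrichment (12.6), the rest with a library left out. Of the 26 calls of regions named for the largest differences, all were kept with ranking by fold enrichment and with a −log10 q of at least 5, 25 with interval overlap, 24 with log2 scores and 23 with equal numbers of top summits. Among the strongest promoter and distal regions more was lost: the *Hand2* distal region between stages by fold enrichment (3.55, turned) and with log2 scores (-0.48), the *Nkx2-5* distal region between stages (4.74) and the *Mef2c* promoter region in EPDCs (3.68) by fold enrichment, the *Gata5* promoter region between stages with interval overlap (-3.94) and that of *Hand1* with equal numbers (-1.33). The cause of these and the following changes was not tested. Shares of all regions at the same setting stand in brackets. The 22 regions higher at E17.5 (11.0%) became 37 with log2 scores (15.3%) and 23 to 38 with a library left out (38 without the first E17.5 replicate, 16.7%), and the 45 lower (27.4%) became 28 with equal numbers of top summits (16.6%) and 45 to 63 with a library left out (27.9% to 34.9%). In EPDCs the 20 higher (9.36%) became 31 with equal numbers (11.1%), 45 against E17.5 alone (19.3%) and 20 to 32 with a library left out (32 without the E12.5 sample, 16.9%), and the 21 lower (8.09%) became 13 with equal numbers (7.06%), 49 against E11.5 alone (24.6%), 32 against E17.5 alone (15.96%) and 21 to 28 with a library left out (8.21% to 11.8%). A value of 0 marks a summit below the caller's threshold, so that weak elements can be missed in libraries with few summits.

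Replicate numbers in the labels were shared by E11.5 and E17.5, but the deviations of same-numbered samples correlated at 0.0332, 0.0907 and -0.0525 and not every sample correlated best with its own number, so the samples share only a number. With the replicate block 29 regions were higher and 59 lower at E17.5 (13.3% and 31.6% of all regions), and of the promoters and summit numbers, only the summit numbers of *Hand1* (-4) and *Nkx2-5* (-1.33) changed their call. The EPDC libraries carry the number 1 at both E12.5 and E13.5, the number 2 at E13.5 and no number 3, and no block was run for their comparison.

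Promoter differences between stages turned in sign for *Gata4* at the start of the gene record (-1.56), for *Gata5* with log2 scores (0.33), equal numbers (1.38) and interval overlap (2.09), for *Hand1* by fold enrichment (18.6), q (5.01), equal numbers (8.48) and the start of the gene record (14.3), for *Isl1* by fold enrichment (5.68), log2 scores (0.24) and equal numbers (0.389), and for *Mef2c* by fold enrichment (4.45), log2 scores (0.14) and equal numbers (3.47). In EPDCs they turned for *Gata6* by fold enrichment (1.92), *Hand1* with log2 scores (-0.13) and interval overlap (-5.40) and *Nkx2-5* at the start of the gene record (-4.19). Summit numbers turned between stages for *Gata6* with q (1.67), equal numbers (3.67) and 25 kb (0.333), *Hand1* with equal numbers (1.33), *Hand2* with equal numbers (3) and 25 kb (0.333), *Nkx2-5* with equal numbers (3), per 100000 summits (an alternative chosen after seeing the data) for *Gata6* (2.53), *Hand2* (3.14), *Nkx2-5* (1.39) and *Mef2c* (1.21), and in EPDCs for *Hand2* with equal numbers (0.5). With a library left out, the stage difference of promoters ranged from -0.083 to 3.26 for *Gata4*, -2.87 to 3.09 for *Gata5*, -10.5 to 6.95 for *Hand1* and -0.62 to 10.1 for *Hand2*, and the EPDC difference from -3.12 to 12.2 for *Hand1* and -0.287 to 4.35 for *Hand2*. The number of summits then ranged from -3 to 2 for *Gata6* and -3.5 to 1 for *Hand2* between stages and from -1.5 to 3 for *Gata6* in EPDCs.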

Other observations

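The EPDC libraries came from E12.5 and E13.5 hearts, and with 1 library at E12.5 this difference has no replicate check. Of the 190 regions at the 8 loci, 93 (48.9%, against 39.6% of all regions) were called in all 3 EPDC libraries, 14 (7.37%, against 8.71%) in both E13.5 libraries but not at E12.5, and 9 (4.74%, against 2.88%) at E12.5 only. The E12.5 library stood apart from E13.5 at several elements. The *Gata6* region chr18:11100769-11101269 was at 62.6, 15.2 and 18.6 in the E12.5 and E13.5 libraries, and the *Mef2c* regions chr13:83573297-83573797 and chr13:83651826-83652326 were at 40.1, 0 and 0 and at 28.8, 0 and 0. The *Nkx2-5* region chr17:26894278-26894778 had the opposite order, at 0, 42.1 and 61, as did the *Gata4* region chr14:63240103-63240603, at 0, 34.4 and 39.5. These elements were chosen after their values were seen. Promoters of epicardial markers also differed between the E12.5 and E13.5 libraries, in both directions. *Upk3b* was at 73.6, 22.8 and 46.1 and *Upk1b* at 83.9, 66.0 and 76.7. By contrast *Tcf21* was at 90.2, 93.0 and 93.4 and *Aldh1a2* at 85.9, 86.3 and 91.6. How this bears on the elements above was not tested.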
